A study of Mus musculus with 6 samples.

Results

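Voltage-gated sodium and calcium channels and the HCN channels (hyperpolarization-activated, cyclic nucleotide-gated cation channels) set how a neuron fires. Their genes were examined in CAD cells, an SV40-transformed mouse line (C57BL/6 x DBA/2, male) with catecholaminergic traits, derived from the central nervous system. Members were the protein-coding genes of Ensembl release 96 whose symbols begin with Scn and a digit, with Cacn, or with Hcn and a digit. This rule gave 44 of the 55536 genes counted, and 41 of them, 22 pore-forming and 19 auxiliary, are described; every count and sum of members below is over these 41. Undifferentiated cells grown in medium with 8% serum (3 libraries) were compared with cells differentiated by 100 µM dexamethasone, a synthetic glucocorticoid, for 5 days in medium with 1% serum (3 libraries). Steroid and serum thus differed together. All samples came from a single established line, and the labels do not say whether the samples of a group came from separate cultures, so a p-value reflects only how these samples vary, which could be technical. Counted reads per library ranged from 6411105 to 8757992, at which 3 reads correspond to 0.327 to 0.487 CPM, the counts per 1000000 reads after scaling by TMM factors.

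A voltage-gated sodium channel is a large alpha subunit that forms the pore, joined by small beta subunits that tune its gating and surface number. High-voltage-activated calcium channels combine a pore-forming alpha-1 subunit with a cytoplasmic beta subunit and an extracellular alpha-2-delta subunit, while low-voltage-activated (T-type) alpha-1 subunits can work alone. HCN subunits open on hyperpolarization and carry the pacemaker current, and most gamma subunits of the Cacng family are better known as partners of AMPA-type glutamate receptors (TARPs) than of calcium channels.

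Nearly every channel gene that could be tested was higher in differentiated cells, and the exception was Scn9a, the sodium channel gene with the highest level per length of those described. Of the 41 members, 23 passed the filter on low counts, and by the edgeR quasi-likelihood test (p adjusted over all genes after Benjamini and Hochberg, threshold 0.05), 22 were higher and 1 was lower. Of all 12664 tested genes, 40.3% were higher and 38.6% lower by the same rule, 78.9% together. Of the 23, 4 (Cacna1g, Scn1a, Cacnb4 and Cacng5) passed the filter through the differentiated libraries alone. They could be tested only because of their level there, which favours a higher result. The 19 that passed it in both groups gave 18 higher and 1 lower, where 38.3% of all genes that did so were higher and 40.7% lower. The median log2 fold change was 1.03 over the 23 tested members and 0.88 over those 19, against 0.02 over all tested genes. A fitted rise of at least 2-fold was found for 12 members (17.8% of all tested genes), 9 of them among the 19 that passed the filter in both groups. In 21 members the differentiated libraries all exceeded the undifferentiated ones, and in Scn9a all were lower, against 41.0% and 38.9% of all tested genes. Scn1a, Cacnb4 and Cacng5, which passed through the differentiated libraries alone, are among both the 12 and the 21. In bulk RNA, fewer cells of a type and less RNA per cell cannot be told apart.

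**Figure D1:**
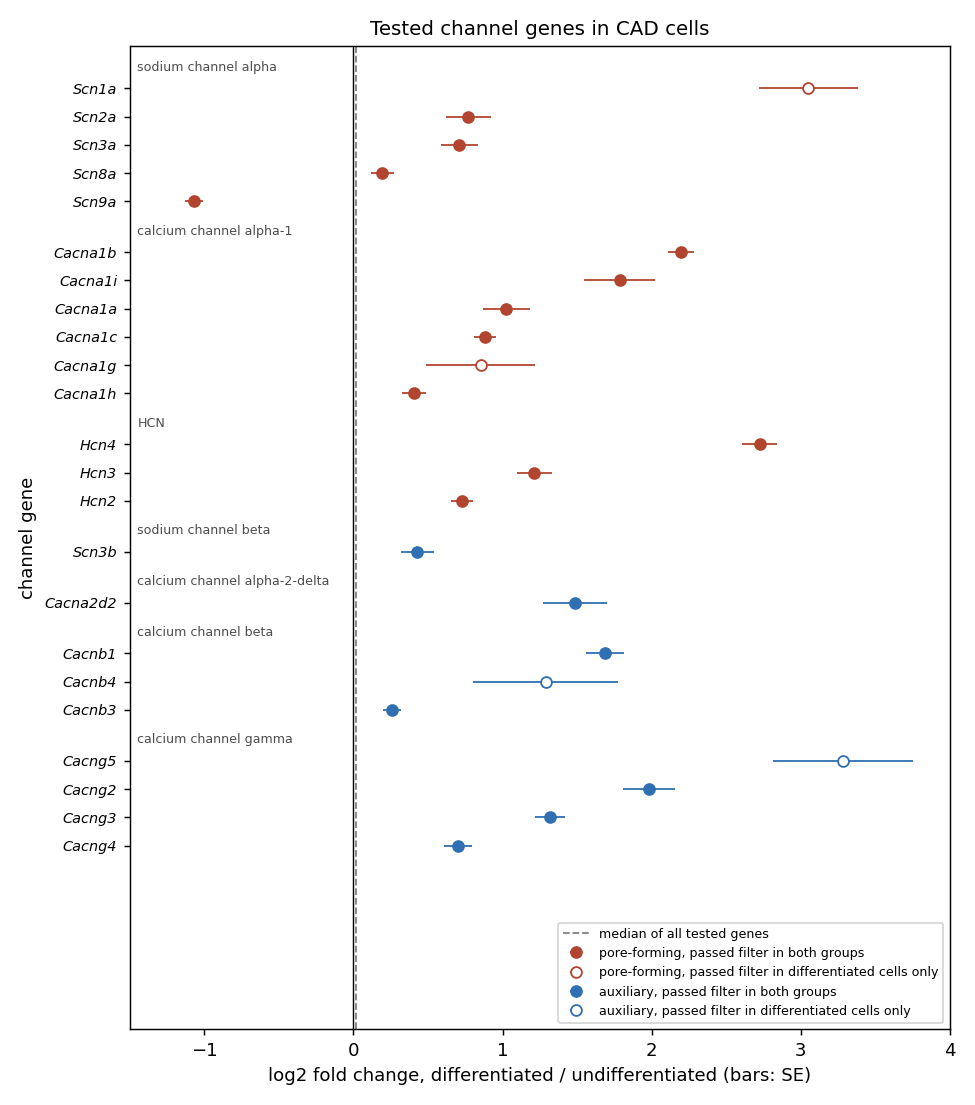
Log2 fold change of each of the 23 tested channel genes (x axis, differentiated over undifferentiated, bars are the standard error), by subunit family (y axis). Filled points passed the count filter in both groups and open points in differentiated cells alone. All points but Scn9a (-1.07) lie to the right of 0, and the dashed line marks the median of all tested genes (0.02).

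The tested members are long genes with few reads: their median exonic length was 8963 bases and their median mean level 17.8 CPM, against 4308 bases and 33.9 CPM over all tested genes. Among tested genes of at least that length 45.7% were higher (median log2 fold change 0.09), and among those with a mean under 10 CPM 46.5%. Of the 7 tested members under 10 CPM, 4 passed the filter through differentiated libraries alone, which favours a higher result, and were called higher. The other 3 (Cacna1i, Cacna2d2 and Cacng2) were higher too. Of the 16 members of at least 10 CPM 15 were higher, against 38.4% of all tested genes at that level. The part of length and level in the result was not tested.

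Members that moved together or apart can be compared by the bases before their start sites. RefSeq promoter windows (GRCm38.p6) were held for 32 of the 41 members, among them 16 of the 23 tested. The 250 bases before the start are printed for Scn9a, which fell, for its chromosomal neighbour Scn1a, and for Hcn4 and Cacna1b, which rose strongly and passed the filter in both groups. Capitals mark matches on either strand to the GC box GGGCGG.
Scn9a (chr2:66634963-66635212, minus strand): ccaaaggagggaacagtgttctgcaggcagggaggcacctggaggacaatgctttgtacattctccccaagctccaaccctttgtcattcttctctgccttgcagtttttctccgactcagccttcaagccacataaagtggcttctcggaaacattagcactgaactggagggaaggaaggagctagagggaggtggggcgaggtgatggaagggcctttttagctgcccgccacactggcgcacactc
Scn1a (chr2:66440838-66441087, minus strand): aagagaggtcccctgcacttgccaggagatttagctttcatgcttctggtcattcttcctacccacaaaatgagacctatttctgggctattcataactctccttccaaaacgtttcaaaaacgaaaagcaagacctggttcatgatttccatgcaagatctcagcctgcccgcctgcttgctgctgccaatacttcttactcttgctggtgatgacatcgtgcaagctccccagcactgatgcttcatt
Hcn4 (chr9:58822699-58822948, plus strand): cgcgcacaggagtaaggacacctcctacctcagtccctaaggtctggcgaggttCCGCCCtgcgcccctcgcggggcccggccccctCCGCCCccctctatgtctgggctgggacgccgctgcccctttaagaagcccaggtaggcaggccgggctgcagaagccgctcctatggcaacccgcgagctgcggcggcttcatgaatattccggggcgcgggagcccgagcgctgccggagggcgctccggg
Cacna1b (chr2:24763153-24763402, minus strand): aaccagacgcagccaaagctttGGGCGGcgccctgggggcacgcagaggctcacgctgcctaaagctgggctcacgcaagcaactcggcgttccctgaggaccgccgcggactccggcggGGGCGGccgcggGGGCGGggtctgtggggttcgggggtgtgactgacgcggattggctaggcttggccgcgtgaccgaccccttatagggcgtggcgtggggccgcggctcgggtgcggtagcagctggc
Both strands were also searched for the palindromic glucocorticoid element, for the left part TTCAGCACC of the element bound by the neuronal gene repressor REST, and for the right part of that element. No window of a tested member held any of these 3, and they occurred in 0.387%, 0.301% and 0.0974% of all 32851 windows of this length. GC boxes lay in 9 of the 25 windows of tested members (36.0%, against 44.4% of the windows of untested members and 32.7% of all windows), with 3 matches before Cacna1b, 2 before Hcn4 and none before Scn9a or Scn1a. No match overlapped another in the printed windows. The median GC content was 62.0% in windows of tested members, 53.0% in those of untested members and 52.4% in all windows. Such matches describe letters in these windows and not bound sites.

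Among the sodium channel pores, Scn9a fell while 4 others rose, where 38.6% of all tested genes were lower and 40.3% higher. Scn9a, best known from peripheral sensory and sympathetic neurons (ENSMUSG00000075316, chromosome 2, 66480080 to 66634962 in GRCm38, minus strand), had 125, 137 and 136 CPM in undifferentiated and 65.4, 64.1 and 59.9 CPM in differentiated libraries. The groups did not overlap, and the log2 fold change was -1.07 ± 0.061 (SE, edgeR adjusted p = 5.36e-15). The antisense gene Gm13629, which overlaps it, had at most 0.221 CPM in a library. The authors counted by strand, but whether that setting matches the library kit is not given in the sources used here. Scn8a, the main sodium channel of nodes of Ranvier, was at 37.3, 38.9 and 42.5 CPM and then at 47.8, 44.3 and 43.0 CPM. These ranges nearly touch. The rise of 1.14-fold (log2 fold change 0.19 ± 0.080 SE, edgeR adjusted p = 0.0284) lost its call when undifferentiated replicate 1, undifferentiated replicate 2 or dexamethasone replicate 1 was left out, with DESeq2 and with a replicate block (adjusted p = 0.0513), and its adjusted p ranged from 0.000719 to 1 over all alternatives.

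Scn1a, prominent in inhibitory interneurons, had 0.848, 0.892 and 0.162 CPM in undifferentiated libraries, or 14 reads in all. It reached 5.54, 5.78 and 5.51 CPM after differentiation, 8.29-fold higher (log2 fold change 3.05 ± 0.332 SE, edgeR adjusted p = 3.47e-09). It was thus low at the start and separated clearly between the groups. Scn2a and Scn3a, both channels of the brain, rose 1.71-fold and 1.64-fold. Scn2a ranged from 7.91 to 10.2 CPM and then from 13.4 to 17.3 CPM, and Scn3a from 10.6 to 13.9 CPM and then from 18.6 to 22.5 CPM.

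Scn3a, Scn2a, Scn1a, Scn9a and Scn7a lie in this order in a cluster on chromosome 2, from 65457118 to 66784914. Within it Scn9a fell while its neighbour Scn1a rose, and Scn7a, which encodes a sodium sensor rather than a classical voltage-gated channel, had 0 reads in undifferentiated and 2 in differentiated cells. Scn10a and Scn11a, both known from sensory neurons, went from 0 to 1 and from 6 to 1 reads and were not tested. Scn4a of skeletal muscle had 3 and 24 reads and failed the filter. Its ratio of scaled reads was 6.77 (95% exact counting interval 2.06 to 35.1), and 2 of its 24 reads came from dexamethasone replicate 3.

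**Figure D2:**
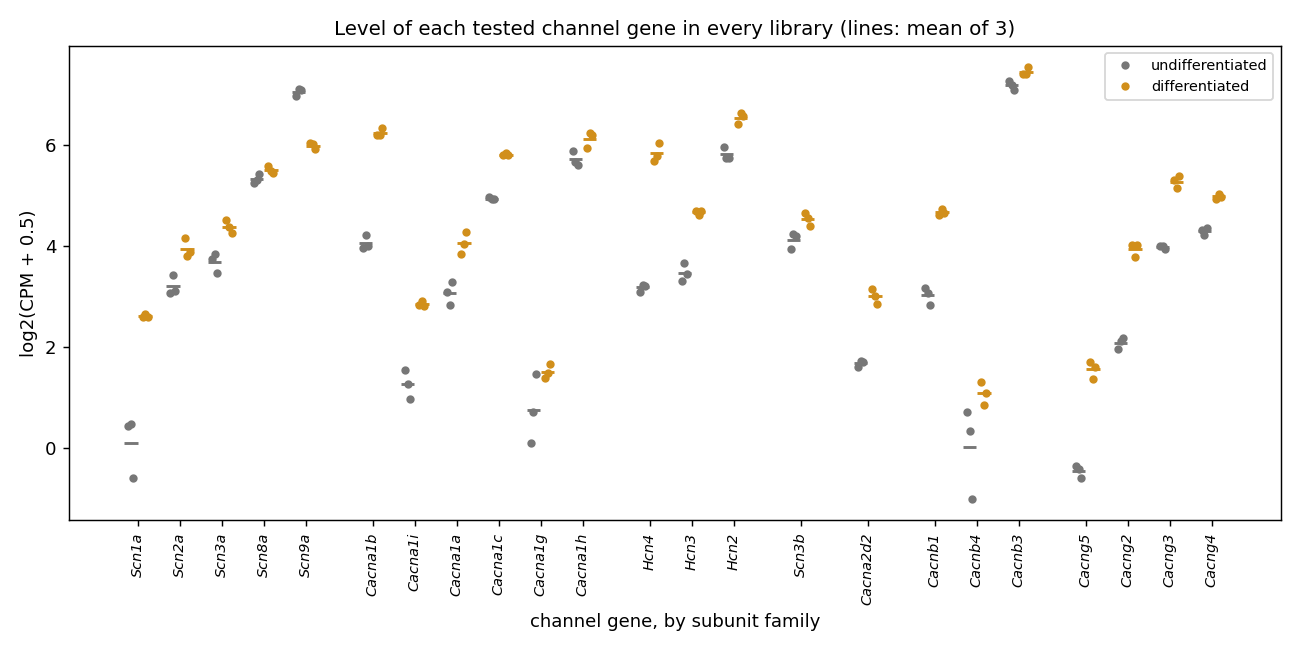
Level of each tested channel gene in each library (y axis, log2 of CPM plus 0.5; x axis, genes by subunit family). Grey points are the 3 undifferentiated and orange points the 3 differentiated libraries, and lines are group means. Scn9a is the gene whose differentiated points lie below the undifferentiated ones, and in Cacna1g the groups overlap.

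Levels of different genes were compared per length, as CPM per kilobase of exon (RPKM), which uses the combined length of all annotated exons and so understates genes with long unused exons. Scn9a stood first among the sodium channel pores in both groups, at 10.4 ± 0.497 and 4.94 ± 0.228 RPKM (SD, n = 3). Its share of the summed level of the 9 sodium channel pores described was 70.3%, 70.4% and 71.2% in undifferentiated libraries and 42.8%, 44.5% and 44.3% in differentiated ones. Scn8a's share was 16.9%, 16.2% and 18.1% and then 25.3%, 24.9% and 25.8%, and that of Scn3a 7.39%, 7.31% and 5.67% and then 15.1%, 14.4% and 14.1%. Neighbouring genes in the order of levels did not overlap in their libraries, and the order of Scn9a, Scn8a, Scn3a, Scn2a and Scn1a was the same in both groups. The 9 genes together went from 13.97, 15.2 and 14.9 RPKM to 11.97, 11.3 and 10.6 RPKM. Without Scn9a they went from 4.32 ± 0.188 to 6.33 ± 0.487 RPKM (SD, n = 3).

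All 6 tested calcium channel pores were higher, as were 40.3% of all tested genes. Cacna1g passed the filter through the differentiated libraries alone. Cacna1b, the N-type channel of nerve terminals (ENSMUSG00000004113, chromosome 2, 24603887 to 24763152, minus strand), had 15.1, 18.2 and 15.6 CPM in undifferentiated and 72.6, 73.0 and 80.4 CPM in differentiated libraries. Every differentiated library was several times above every undifferentiated library (log2 fold change 2.20 ± 0.088 SE, edgeR adjusted p = 1.88e-18). Cacna1a, the P/Q-type channel of nerve terminals, went from 8.06, 6.63 and 9.25 CPM to 13.8, 16.0 and 18.9 CPM, 2.04-fold higher. Cacna1c, an L-type channel, had 30.7, 30.0 and 30.0 CPM and then 55.4, 56.6 and 55.1 CPM, with little spread within groups. Its log2 fold change was 0.88 ± 0.076 (SE, edgeR adjusted p = 3.06e-11).

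The T-type genes differed in size of change. Cacna1h, the most abundant of them, had 58.8, 50.1 and 48.4 CPM and then 60.9, 74.8 and 73.4 CPM, a 1.32-fold rise (edgeR adjusted p = 7.31e-05) in which undifferentiated replicate 1 and dexamethasone replicate 1 lay close together. Cacna1i rose 3.45-fold from a low level, 1.46 to 2.40 CPM, to 6.55 to 6.98 CPM. Cacna1g had 4, 9 and 14 reads and then 19, 21 and 18 reads. Its groups overlapped in CPM (0.565 to 2.27 and 2.10 to 2.68), and the rise of 1.81-fold (0.85 ± 0.365 SE in log2, edgeR adjusted p = 0.0355) lost its call with DESeq2 and when any of undifferentiated replicates 1 and 2 and dexamethasone replicates 2 and 3 was left out. Its adjusted p ranged from 0.00409 to 0.236 over all alternatives. Of the 4 untested calcium channel pores, Cacna1d, the other neuronal L-type gene, had 10 and 17 reads (ratio of scaled reads 1.44, 95% exact counting interval 0.622 to 3.51), Cacna1f of the retina 0 and 2, and Cacna1e, the R-type gene, and Cacna1s of skeletal muscle no read.

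The order of the calcium channel pores changed at the top. In undifferentiated cells Cacna1h stood above Cacna1b (5.37 ± 0.572 and 1.64 ± 0.168 RPKM, SD, n = 3), and in differentiated cells the 2 genes overlapped (7.14 ± 0.784 and 7.58 ± 0.440 RPKM, SD, n = 3). The share of Cacna1b in the summed pore level was 15.2%, 19.7% and 17.1% and then 39.9%, 36.6% and 38.7%, and that of Cacna1h 60.2%, 55.1% and 54.0% and then 34.0%, 38.2% and 36.0%. Neither gene's shares overlapped between groups. Cacna1c held 14.5%, 15.2% and 15.4% and then 14.3%, 13.3% and 12.5%. Shares depend on the exon length used: as shares of reads, Cacna1c held 27.3% and 24.6%, Cacna1b 14.8% and 33.2% and Cacna1h 47.3% and 30.7% (means), so that Cacna1c stood above Cacna1b in undifferentiated cells. The shares of Cacna1a, 7.37% ± 1.33 and 7.18% ± 0.679 (SD, n = 3), differed by less than the spread between libraries. The high-voltage-activated genes together went from 3.80 ± 0.103 to 11.7 ± 0.645 RPKM, and the T-type genes from 5.70 ± 0.545 to 8.05 ± 0.812 RPKM (SD, n = 3).

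**Figure D3:**
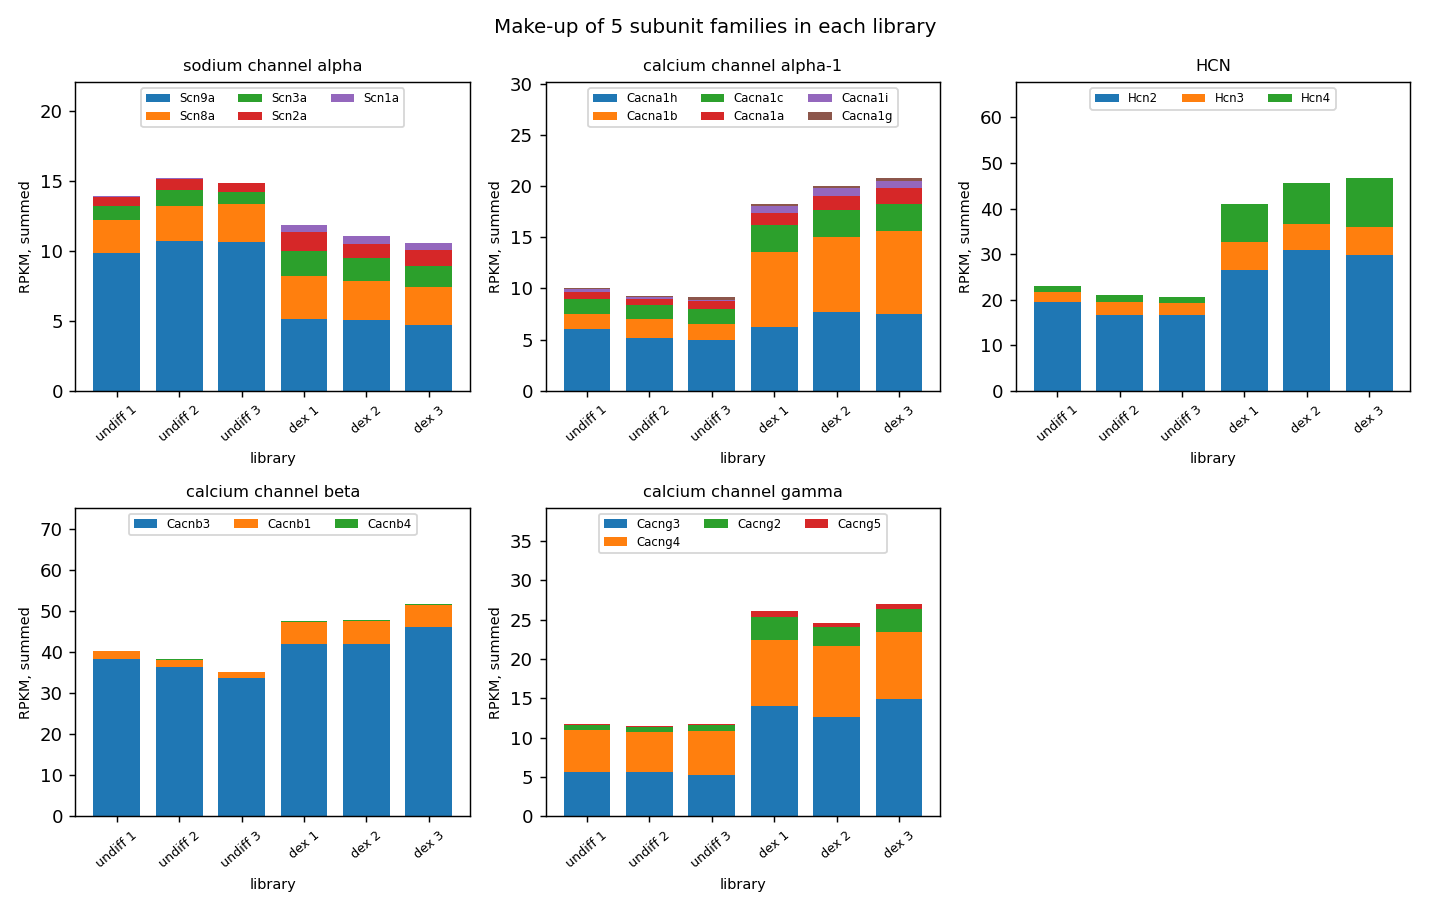
Summed level of 5 subunit families in each of the 6 libraries (y axis, RPKM; x axis, libraries), stacked by tested member; shares are of the sum over all members described. The Scn9a block shrinks from 70.3% to 71.2% of its family's level to 42.8% to 44.5%, while the Cacna1b and Hcn4 blocks grow.

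All 3 HCN genes described were higher, as were 40.3% of all tested genes. Hcn4, the pacemaker subunit of the sinoatrial node (ENSMUSG00000032338, chromosome 9, 58823412 to 58863175, plus strand), had 8.06, 8.92 and 8.77 CPM in undifferentiated and 51.2, 54.9 and 65.7 CPM in differentiated libraries. The groups stood far apart, 6.61-fold (log2 fold change 2.72 ± 0.115 SE, edgeR adjusted p = 5.62e-18). Hcn2, a subunit common in brain and the most abundant here, went from 62.2, 53.0 and 53.2 CPM to 85.0, 98.4 and 95.5 CPM, a 1.65-fold rise. Hcn3 rose 2.32-fold, from 9.47, 12.1 and 10.4 CPM to 25.5, 23.9 and 25.3 CPM.

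Per length, Hcn2 led in both groups (17.6 ± 1.64 and 29.1 ± 2.20 RPKM, SD, n = 3). Hcn3 stood above Hcn4 in undifferentiated cells (2.57 ± 0.322 and 1.40 ± 0.075 RPKM, SD, n = 3) and below it in differentiated cells (5.99 ± 0.212 and 9.36 ± 1.23 RPKM, SD, n = 3), and no neighbours in either order overlapped. The share of Hcn4 in the summed level of these 3 genes was 5.71%, 6.95% and 6.96% and then 20.3%, 19.7% and 22.98%, while that of Hcn2 was 84.4%, 79.1% and 80.9% and then 64.7%, 67.7% and 63.97%. As shares of reads, Hcn4 held 11.4% and 32.6% and Hcn2 74.4% and 53.1% (means).

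The 19 auxiliary genes included 9 that were tested, and all 9 were higher, as were 40.3% of all tested genes. Cacnb4 and Cacng5 passed the filter through the differentiated libraries alone. Among the calcium channel beta subunits, which bring the pore to the membrane, Cacnb3 had the highest level per length of all tested channel genes (36.2 ± 2.34 and 43.4 ± 2.39 RPKM, SD, n = 3). It had 154, 146 and 135 CPM and then 169, 168 and 185 CPM. Its groups lay close, and its rise of 1.20-fold (log2 fold change 0.26 ± 0.058 SE, edgeR adjusted p = 0.000213) became 0.39 in log2 with library totals in place of TMM factors. Cacnb1, the beta subunit of skeletal muscle and also of neurons, had 8.48, 7.90 and 6.66 CPM and then 23.9, 26.1 and 24.7 CPM, 3.22-fold higher (edgeR adjusted p = 1.58e-12). Its share of the beta subunit level was 4.46% ± 0.247 and then 11.2% ± 0.751, with nearly all of the rest in Cacnb3 (95.3% ± 0.387 and 88.4% ± 0.727, SD, n = 3). Cacnb4 had 8, 6 and 0 reads and then 18, 12 and 11 reads. Its log2 fold change, 1.29 ± 0.486 (SE; edgeR adjusted p = 0.0178), was 0.80 without undifferentiated replicate 3 and lost its call there (adjusted p = 0.102), was 1.91 without undifferentiated replicate 1, and also lost its call without dexamethasone replicate 1 and with DESeq2 (adjusted p 0.00747 to 0.102 over all alternatives). Cacnb2 had 1 and 3 reads.

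Of the alpha-2-delta subunits, which promote the traffic of the pore to the membrane, only Cacna2d2 had more than 4 reads in a group. It went from 2.54, 2.80 and 2.76 CPM to 8.42, 7.52 and 6.70 CPM, a 2.80-fold rise (edgeR adjusted p = 5.30e-07). Cacna2d1 had 2 and 4 reads, Cacna2d4 0 and 1, and Cacna2d3 none. The summed alpha-2-delta level was low beside that of all calcium channel pores described, T-type genes included. This ratio was 0.037 ± 0.0031 in undifferentiated and 0.049 ± 0.0088 in differentiated cells (SD, n = 3). The ratio of beta subunits to the same pores went from 3.99 ± 0.141 to 2.49 ± 0.106 (SD, n = 3). Both ratios depend on counting the T-type genes, which can work alone. Between group means, the summed high-voltage-activated pores rose 3.08-fold, alpha-2-delta subunits 2.78-fold and beta subunits 1.29-fold. The alpha-2-delta sum, 0.347 ± 0.0158 and then 0.966 ± 0.108 RPKM (SD, n = 3), rests on few reads (57 and 190 for Cacna2d2). Whether its rise differed from that of the high-voltage-activated pores was not tested.

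The 4 gamma subunit genes with reads are all TARPs. Cacng2, known as stargazin, had 3.39, 3.82 and 4.06 CPM and then 15.7, 13.2 and 15.8 CPM, 3.95-fold higher (edgeR adjusted p = 4.47e-11). Cacng3 rose 2.49-fold, from 15.5, 15.5 and 14.8 CPM to 38.9, 35.0 and 41.2 CPM, and Cacng4 1.63-fold, from 19.4, 18.2 and 19.97 CPM to 30.2, 32.3 and 30.8 CPM. Cacng5 had 2, 2 and 1 reads and then 25, 19 and 17 reads, the largest fitted log2 fold change of the tested members (3.28 ± 0.470 SE, edgeR adjusted p = 4.53e-07). Per length, Cacng3 and Cacng4 overlapped in undifferentiated cells (5.51 ± 0.161 and 5.37 ± 0.247 RPKM), and Cacng3 stood higher in differentiated cells (13.8 ± 1.14 and 8.70 ± 0.293 RPKM, SD, n = 3). Cacng1 and Cacng6, which associate with muscle calcium channels, and the TARP genes Cacng7 and Cacng8 had no read.

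Of the sodium channel beta subunits, Scn3b had 14.8, 18.4 and 17.9 CPM and then 24.7, 23.1 and 20.5 CPM, a 1.35-fold rise (edgeR adjusted p = 0.00111). Its groups did not overlap. Scn2b and Scn4b had no read.

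Pore-forming and auxiliary genes moved the same way. Of 22 pore-forming genes 14 were tested, with 13 higher and 1 lower (median log2 fold change 0.87), and of 19 auxiliary genes 9 were tested, with 9 higher and none lower (median 1.32). Of those that passed the filter in both groups, 11 of 12 pore-forming and 7 of 7 auxiliary genes were higher, with medians of 0.83 and 1.32. These 7 include the TARP genes Cacng2, Cacng3 and Cacng4, with log2 fold changes of 1.98, 1.32 and 0.70. The others were Cacnb1 (1.69), Cacna2d2 (1.49), Scn3b (0.43) and Cacnb3 (0.26), so the auxiliary median depends on counting TARPs. The difference between these medians was not tested, and 40.3% of all tested genes were higher. Genes without a read numbered 2 of 22 pore-forming and 7 of 19 auxiliary. For a gene without a read in a group, an approximate 95% upper bound is 3 reads over the group. That is 0.142 CPM in undifferentiated or 0.120 CPM in differentiated cells, and it covers counting error only. The ratio of the summed pore-forming to the summed auxiliary level was 0.854, 0.852 and 0.886 in undifferentiated and 0.901, 0.99 and 0.937 in differentiated libraries. These values did not overlap but differed little. Both sums rose, from 45.8 ± 1.18 to 75.5 ± 3.58 RPKM and from 53.0 ± 2.35 to 80.1 ± 2.99 RPKM (SD, n = 3). The auxiliary sum included the TARP genes, at 11.6 ± 0.136 and then 25.9 ± 1.23 RPKM (SD, n = 3). It also included Cacnb3, at 36.2 ± 2.34 and then 43.4 ± 2.39 RPKM (SD, n = 3). The ratio thus depends on counting TARPs, as the auxiliary median does.

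Genes of proteins that bind or regulate these channels moved both ways. Of 38 such genes 27 were tested, with 18 higher and 5 lower and a median log2 fold change of 0.74, against 40.3% higher, 38.6% lower and a median of 0.02 over all tested genes. Of the sodium channel partners 7 of 9 tested genes were higher and 1 lower. Nfasc, the neurofascin that gathers channels at the axon initial segment, had 8.90, 9.81 and 8.28 CPM and then 72.4, 69.1 and 61.2 CPM, 7.49-fold higher (edgeR adjusted p = 1.20e-19). Nrcam, a related adhesion molecule, rose 2.67-fold, and Fgf11, an intracellular factor that binds the sodium channel tail, 4.26-fold. Fgf13 of the same family fell, from 2.12, 1.78 and 2.27 CPM to 0.554, 0.436 and 0.298 CPM (log2 fold change -2.17 ± 0.418 SE, edgeR adjusted p = 3.62e-05). Ank3, ankyrin G, did not pass the test, with 99.95 ± 2.74 and 108.6 ± 9.62 CPM (SD, n = 3; edgeR adjusted p = 0.0777).

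Of the calcium channel partners 9 of 16 tested genes were higher and 4 lower (median log2 fold change 0.37), against 40.3% and 38.6% of all tested genes. Snap25, a SNARE protein that binds the N-type and P/Q-type pores, rose 2.52-fold, Cbarp, an inhibitor of calcium currents that binds beta subunits, 2.75-fold, and Cabp1, a calmodulin-like regulator, 2.36-fold. Stx1a, the SNARE partner syntaxin, fell 1.57-fold, Stac 1.26-fold and the calmodulin gene Calm3 1.13-fold. With upper quartile factors 3 partner genes were lower and with library totals alone 2, so the small falls depend on the scaling. In the complex of the sodium leak channel, Unc80 and Unc79 rose 2.81-fold and 1.52-fold, while the pore gene Nalcn was at 0.132 ± 0.128 and 0.036 ± 0.063 CPM (SD, n = 3), too low to test. Neither HCN partner listed, Pex5l and Kcne2, had enough reads to test. Ank3, Fgf14, Nalcn, Pex5l and Kcne2 were named after their values were seen.

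**Figure D4:**
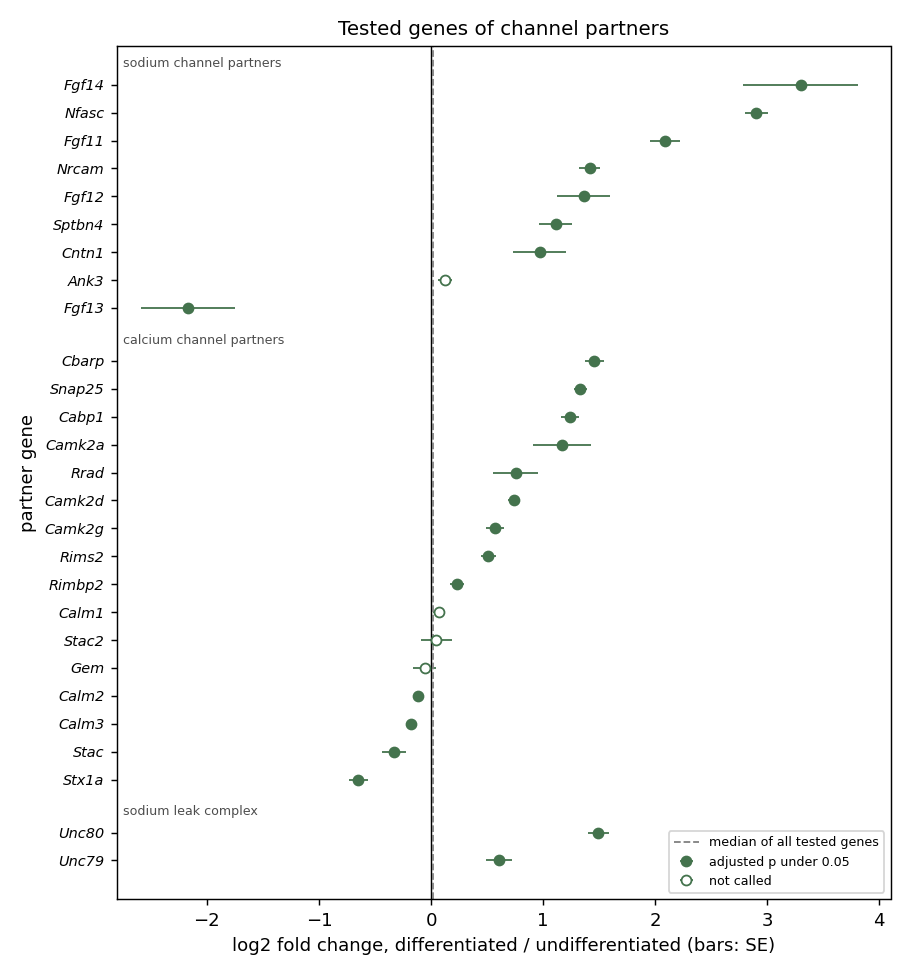
Log2 fold change of the 27 tested partner genes (x axis, differentiated over undifferentiated, bars are the standard error) by the channel they act on (y axis). Filled points passed an adjusted p of 0.05 and open points did not. Fgf13 (-2.17) is the lowest point and Fgf14 (3.30), another intracellular factor, the highest.

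Markers of the line and of other cell types were read beside these values. All 12 neuronal and catecholaminergic markers were tested, 6 higher and 5 lower, shares near the 40.3% higher and 38.6% lower over all tested genes. Their summed level, 1689 to 1712 CPM and then 1690 to 1754 CPM, hid opposite moves. Of the enzymes of catecholamine synthesis, Dbh went from 164.8 ± 3.07 to 12.5 ± 0.354 CPM, Ddc from 3.61 ± 0.187 to 0.466 ± 0.185 CPM and Th from 4.60 ± 0.674 to 9.52 ± 1.05 CPM (SD, n = 3). Of the 8 skeletal muscle markers Myod1, Myog and Ckm had no read, but the list summed to 167.0 to 172.6 CPM and then to 202.6 to 217.7 CPM through Myh3, an embryonic myosin heavy chain named after its values were seen (170.1 ± 3.07 and 209.5 ± 7.37 CPM, SD, n = 3; edgeR adjusted p = 7.86e-06). The 6 heart muscle markers summed to at most 0.332 CPM in a library. Of the members named above as known from muscle or heart, Cacnb1 (skeletal muscle and neurons) and Hcn4 (sinoatrial node) were higher. Scn4a, with 3 and 24 reads, was not tested, and Cacna1s, Cacng1 and Cacng6 had no read. Glial markers summed to 7.63 to 11.1 CPM and then to 60.8 to 65.2 CPM, with Aldoc making up most of the later sum (4.88 ± 1.05 and 58.4 ± 2.16 CPM, SD, n = 3), with Sox10 at 0 and Gfap at 0.365 ± 0.181 and 0.637 ± 0.111 CPM (SD, n = 3). Fibroblast markers summed to 10.1 to 13.7 CPM and then to 18.3 to 20.3 CPM, mostly Dcn, with Col3a1 at 0. The part of Myh3 and of the glial and fibroblast genes in the channel results was not tested.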

How the data were processed

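Messenger RNA of 6 CAD cell samples was sequenced (500 ng of total RNA, 12 cycles of amplification and 75-base reads, per the labels). The submitters' processing notes list HISAT2 2.2.0, Subread 1.6.4, DESeq2, Trim Galore 0.6.4 and FastQC 0.11.9, with the build GRCm38.p6. The deposited values are raw counts per gene that the authors made with featureCounts 1.6.4 over exons of Ensembl 96 with strand setting 1, per the file headers, with no option to count reads that map to several places, so values of close paralogs carry that uncertainty. All 55536 gene identifiers matched GENCODE M21, with the same start and end.

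Genes were filtered with filterByExpr (minimum count 10, minimum total 15), scaled by TMM and compared in edgeR 4.0.16 (R 4.3.3; glmQLFit and glmQLFTest, group as the only term); 12664 genes were tested and those with a Benjamini-Hochberg adjusted p under 0.05 called. A standard error is the log2 fold change divided by the square root of F. RPKM was computed from the TMM-scaled CPM and the exon length in the files. Counting intervals are exact binomial intervals (SciPy 1.17.1) and cover counting error only. On data simulated from these libraries (200 of 12664 genes changed) the test recovered 66.0% of 1.3-fold, 74.0% of 1.5-fold, 96.0% of 2-fold and 96.0% of 4-fold changes, and 8.79% of its 182 calls were unchanged genes. In the real comparison 78.9% of genes were called, so these rates need not hold there. Sampling noise alone did not account for differences within groups (chi-square over its degrees of freedom, 1.65 to 3.19), so each library was counted once.

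The members and lists were chosen with earlier results of these data known. Values of 3 members are not reported here, and the other 41 are all accounted for. Of the partner list, the text names called genes above 1 CPM with the 3 smallest adjusted p in each direction and subgroup, and at most 3 genes of a marker list. The results were recomputed with DESeq2 1.42.0 and limma voom (limma 3.58.1), with a replicate block, with each library left out, with scaling by RLE, by upper quartiles or by library totals, unfiltered, with a filter of 1 CPM in 3 libraries, on protein-coding genes only, and with stricter calls (adjusted p below 0.01, or a fold beyond 1.5); summed levels under library totals were added after seeing the data. Since TMM assumes that most genes do not change and 78.9% were called, higher and lower are relative to the other mRNA of a library.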

Additional observations from a re-analysis of the deposited data

How the results depend on the processing

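The direction of all 23 tested members was kept under each of the 17 alternatives. Members called higher numbered 13 in place of 22 in the test against a fold of 1.5, pore-forming members 8 in place of 13 and auxiliary members 5 in place of 9. Of all 12664 tested genes, 22.5% were higher and 18.3% lower in that test. Partner genes called lower numbered 3 with upper quartile factors, 2 with library totals alone and 1 in the test against a fold of 1.5, in place of 5. Apart from that test against a fold of 1.5 and the stricter threshold, calls were lost for Scn8a, Cacna1g and Cacnb4 alone. Scn9a kept its call throughout, with a log2 fold change of -1.11 to -0.94. As shares of reads, without length, 31 of 46 mean shares moved by more than the SD between libraries. Replicate numbers did not pair the samples (r = -0.095, 0.036 and -0.071 between same-numbered samples), and with the replicate block 21 members were higher and 1 lower, Scn8a losing its call. Upper quartile factors and library totals put the median gene at 0.12 and 0.14 on the log2 scale, against 0.02 with TMM, and no member changed direction. Depth limits members with few reads in a group, where 1 library can move a fold. Cacna1g, with 27 and 58 reads, had log2 fold changes from 0.50 to 1.40 over the alternatives.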

Other observations

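Apart from Scn9a, the tested protein-coding genes of the sodium channel cluster on chromosome 2 were all higher in differentiated cells, and Scn7a was not tested. Of all tested genes 40.3% were higher and 38.6% lower. Galnt3, a glycosyltransferase, went from 19.7 ± 0.363 to 193.9 ± 6.37 CPM, Csrnp3 from 17.6 ± 2.66 to 57.1 ± 3.70 CPM and Ttc21b, a gene of cilia, from 75.5 ± 2.26 to 105.9 ± 3.29 CPM (SD, n = 3; edgeR adjusted p = 1.33e-24, 4.23e-15 and 2.68e-08). Scn9a was thus the only gene of the cluster's 7 tested ones to fall. These genes were chosen after their values were seen.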
